A study of Mus musculus with 53 samples.

Results

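H19, Meg3, Airn and Kcnq1ot1 are long non-coding RNAs transcribed from imprinted loci, and each was followed here by the row that carries its name in the deposited expression tables of single mouse blood stem and precursor cells. All 4 were listed in both tables, out of 20449 gene IDs listed in at least 1 of them. The groups were 26 adult haematopoietic stem cells (HSCs), labelled wildtype and sorted from bone marrow of C57 mice, 12 T1 pre-HSCs with the genotype mH19 delta_DMR/+ (called KO, numbered 1 to 12) and 10 T1 pre-HSCs with the genotype mH19 flDMR/+ (called wildtype, numbered 13 to 22). T1 pre-HSCs are precursors of HSCs, taken here from the aorta-gonad-mesonephros region at E11. Both T1 genotypes carry an altered H19 allele, deleted in KO and floxed in wildtype cells, beside an unaltered one; what drove the deletion is not given in the sources used here. No embryo, litter or mouse was named for any cell, so a group is 1 sample, its cells give no replicate error, and no test between groups was made.

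In imprinting, one parental copy of a gene is silenced according to the parent it came from, through DNA methylation laid down at a differentially methylated region (DMR). H19 and Meg3 are expressed from the maternal copy, and Airn and Kcnq1ot1 from the paternal copy. H19 shares its control region with the growth factor gene Igf2 and is the precursor of the microRNA miR-675. Meg3 lies in the Dlk1 and Dio3 cluster, a locus known for its role in keeping HSCs quiescent, while Airn and Kcnq1ot1 are long, mostly unspliced transcripts that run antisense to Igf2r and Kcnq1 and silence neighbouring genes in cis.

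In the adult table, on build mm10, H19 (ENSMUSG00000000031.11) was placed on chromosome 7 at 142575528 to 142578143 and Kcnq1ot1 (ENSMUSG00000101609.1) on the same chromosome at 143212154 to 143296549. Meg3 (ENSMUSG00000021268.13) was placed on chromosome 12 at 109541000 to 109571726 and Airn (ENSMUSG00000078247.3) on chromosome 17 at 12741310 to 12860122. These spans were 2615, 84395, 30726 and 118812 bases. RefSeq annotates all 4 as lncRNA. The exon structure behind each value was not given, and a level per length depends on it.

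The 2 mature arms of miR-675, which RefSeq places inside the H19 span, are shown because they are the small RNA product of the transcript that, of the 4, differs most between the T1 genotypes; they were not measured here. Both are on the minus strand of GRCm38.p6, 5′ to 3′, with the seed (bases 2 to 8) in capitals, and the seeds of the arms differ.
mmu-miR-675-5p, chr7:142577112-142577133: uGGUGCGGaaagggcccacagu
mmu-miR-675-3p, chr7:142577078-142577099: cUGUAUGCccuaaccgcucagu

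The start regions of Meg3 and Kcnq1ot1, from RefSeq on GRCm38.p6, are shown. They were chosen because, at a value of 1 or more, these RNAs were the pair found together in the largest number of adult HSCs, 8 cells. The leading pair depended on the threshold. At any value above 0, Meg3 and Airn were together in 56% of adult cells, against 44% for Meg3 and Kcnq1ot1. At 5 or more, H19 and Meg3 were together in 20%, against 8% for Meg3 and Kcnq1ot1. Each region runs from 250 bases before the annotated start to 50 bases after it, 5′ to 3′ along the gene. Capitals mark TGACGTCA, the palindromic cAMP response element, in Meg3, and CCAAT, the box bound by NF-Y, in Kcnq1ot1, each searched on both strands.
Meg3, chr12:109540746-109541045, plus strand: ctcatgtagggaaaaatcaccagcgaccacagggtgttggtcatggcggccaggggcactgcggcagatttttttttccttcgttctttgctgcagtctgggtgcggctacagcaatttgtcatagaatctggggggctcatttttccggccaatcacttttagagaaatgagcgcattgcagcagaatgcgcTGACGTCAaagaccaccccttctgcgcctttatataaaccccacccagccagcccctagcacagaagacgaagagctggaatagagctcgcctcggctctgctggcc
Kcnq1ot1, chr7:143296498-143296797, minus strand: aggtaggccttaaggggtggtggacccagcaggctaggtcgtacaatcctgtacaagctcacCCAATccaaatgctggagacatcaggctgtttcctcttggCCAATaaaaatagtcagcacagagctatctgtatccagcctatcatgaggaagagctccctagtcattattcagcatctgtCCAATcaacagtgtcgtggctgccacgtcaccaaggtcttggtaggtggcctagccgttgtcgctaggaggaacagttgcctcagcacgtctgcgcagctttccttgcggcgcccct

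The Kcnq1ot1 region held CCAAT 3 times, Meg3 1 time (not capitalised) and the Airn region 0 times, and 37.4% of 32817 promoters of the same length held it at least 1 time. TGACGTCA was found 1 time in Meg3 and 0 times in Kcnq1ot1 and Airn, against 1.79% of all promoters. The regions held 13 CpG in Meg3, 9 in Kcnq1ot1 and 3 in Airn, where the median promoter held 7. These are matches of letters and say nothing of binding or methylation in these cells.

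The adult table, mainly of long non-coding RNAs, listed 6910 rows and names no unit; its values were treated as FPKM, fragments scaled to transcript length and library size. Of its 27 cell columns, the 2 that share a name were not used, which left 25 cells with 384 to 761 rows at 1 FPKM or more. The 2 unused columns are 1 of the 26 labelled cells and a column that could not be told from it. None of the marker genes of blood, endothelial or stromal cells chosen for this report was listed there, so the adult label could not be checked. In the T1 table, given in RPKM with 14833 genes, wildtype cell 19 was left out. Against the mean of all others its Spearman correlation was 0.087, where the lowest of the other cells had 0.30, and Actb and Rplp0, which every cell uses, were listed at 0 in it. The remaining 12 KO cells had 1517 to 8408 genes at 1 RPKM or more and the 9 wildtype cells 2067 to 5716. Sequencing depth was unknown for both tables. Procr, a surface receptor commonly used to sort pre-HSCs, reached 1 RPKM in 9 KO and 8 wildtype cells, Pecam1, an endothelial adhesion molecule, in 6 and 6, Kit, the stem cell factor receptor, in 7 and 5, Cdh5, an endothelial cadherin, in 7 and 7, and Ptprc, the pan-leukocyte marker CD45, in 1 and 1. The blood transcription factor genes of the same list varied: Gfi1 reached 1 RPKM in 0 KO and 7 wildtype cells, Runx1 in 4 and 6, Spi1 in 5 and 9, and Mecom in 8 and 7. Of 12 sort and identity genes 10 were compared between the genotypes. Gfi1, Runx1 and Spi1 were the ones lower by 1 or more in KO on the log2(RPKM + 1) scale, at -2.57, -2.70 and -5.81, with 0 higher. Mecom was at -0.61. Genes were compared where 50% or more of the KO cells or of the wildtype cells reached 1 RPKM, and 28% of all genes compared were lower by that size. Gfi1, Runx1 and Spi1 passed this filter only through the wildtype cells, where they were higher, so it favoured a lower KO value for them.

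Adult cells 23 and 24 shared digits with each other, and 2 of the 4 lncRNAs were among the rows concerned. Of 350 rows above 0 in both cells, 179, or 51.1%, had the same significant digits, at least 5 of them, at the same or another decimal place. Over the 299 other pairs of cells, this held for 1 of 81666 such row pairs. Meg3 was listed at 11027 FPKM in cell 24 and 110.3 FPKM in cell 23, a ratio of 100, and Airn at 74.7 and 0.747 FPKM, also a ratio of 100. A ratio of 100 was found in 12 rows. The Meg3 value of cell 24 was the highest of any row in any adult cell used; outside cell 24, the highest value of any row was 1745 FPKM. Kcnq1ot1 shared no digits between these cells. H19 was listed at 0 in cell 23, so its digits in cell 24, at 109 FPKM, could not be compared. No other values of the 4 lncRNAs shared digits in this way, in adult or T1 cells. The adult detection shares, levels and pairs are therefore given with and without cells 23 and 24.

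**Figure D1:**
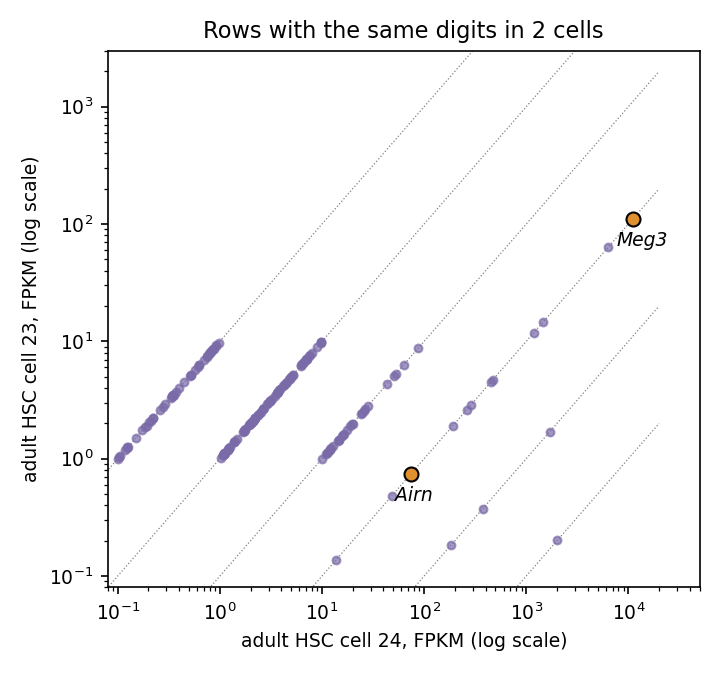
Values of the 179 rows with the same digits in adult cell 24 (horizontal axis) and cell 23 (vertical axis), both in FPKM on log scales; dotted lines mark ratios that are powers of 10. Meg3 and Airn (orange) lie on the line where cell 24 is 100 times cell 23.

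H19 in adult HSCs was either high or near 0. It was at 1 FPKM or more in 8 of 25 cells, a share of 32.0% (exact Clopper-Pearson 95% interval 14.9 to 53.5%, which covers counting error only, as do all intervals here). These were cells 2, 15, 24, 11, 20, 1, 22 and 26, with 88.6, 106, 109, 154, 167, 184, 872 and 1054 FPKM. The other 17 cells were at 0.514 FPKM or less, 12 of them listed at 0, so any threshold between 0.514 and 88.6 FPKM gives the same 8 cells. Within the detecting cells H19 ranked between 1 and 45 among the 6910 rows, and it was the highest row of all in cells 22 and 26. Without cells 23 and 24, H19 was detected in 7 of 23 cells, or 30.4% (13.2 to 52.9%).

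Meg3, a maternal transcript, was detected in more adult cells than H19. It was at 1 FPKM or more in 14 of 25 cells, or 56.0% (34.9 to 75.6%), and in 12 of 23 cells, or 52.2% (30.6 to 73.2%), without cells 23 and 24. In those 12 cells the lowest, median and highest values were 2.07, 115 and 506 FPKM, and 11 of them were at 5 FPKM or more. In cell 6 Meg3 was the second highest row of the table and in cell 2 the third, at 506 and 394 FPKM. Of the 11 cells below 1 FPKM, 9 were listed at 0.

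The row most like Meg3 across the adult cells was Gm26906, which the table places inside the Meg3 span, at 109568627 to 109571723 of chromosome 12. Spearman's rho was 0.88 over 23 cells, the highest of 718 rows at 1 FPKM or more in at least 25% of these cells. It is given as a description, since the cells share 1 table, and reads from overlapping rows cannot be told apart when strand is not stated. Gm26906 was at 1 FPKM or more in 10 of the 12 cells with Meg3 and in 1 of the 11 cells without, where it was at 4.16 FPKM (cell 25). In those 10 cells its value was 0.135 to 0.743 times that of Meg3, with a median of 0.213. In cell 23 this ratio was 0.093. In cell 24, where Meg3 was listed at 11027 FPKM, Gm26906 was listed at 0.

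**Figure D2:**
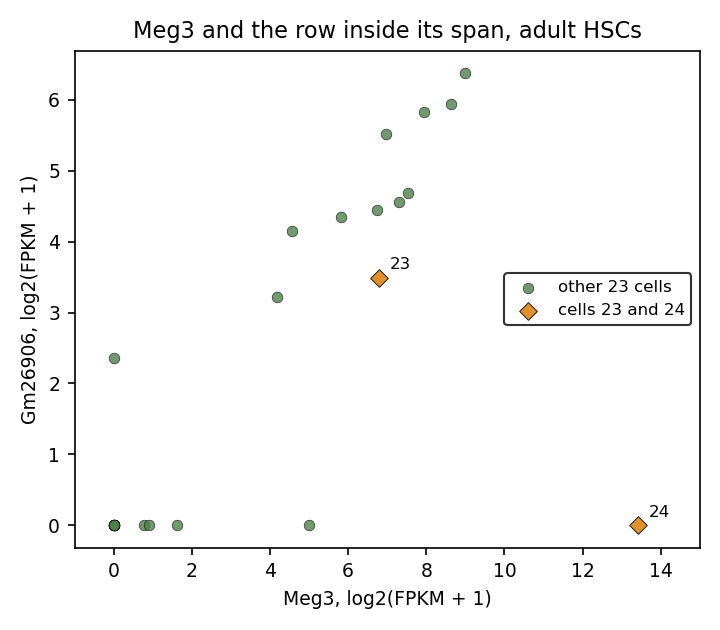
Gm26906 (vertical axis) against Meg3 (horizontal axis) in 25 adult HSCs, log2(FPKM + 1), 1 point per cell. Of the 12 cells with Meg3 at 1 FPKM or more outside cells 23 and 24, 10 also have Gm26906; cell 24 has the highest Meg3 and Gm26906 at 0.

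Other RNAs of the Meg3 cluster were rare. Rian, the next maternal transcript downstream and a host of small nucleolar RNAs, reached 1 FPKM in 2 of 25 cells, with 119 FPKM in cell 4, which had 106 FPKM of Meg3. The other was cell 8, with 183 FPKM of Meg3. Mirg, a microRNA host of the same cluster, reached it in cell 22, at 96.8 FPKM beside 245 FPKM of Meg3, and in cell 12, where Meg3 was listed at 0. Dio3os, antisense to the deiodinase gene Dio3, reached it in cell 10, where Meg3 was also listed at 0, and B830012L14Rik in 0 cells. Of 7 listed members of the wider list of imprinted non-coding RNAs, 4 reached 1 FPKM in any cell. The fourth was Nespas, the antisense transcript of the Gnas locus, at 75.9 FPKM in cell 1 and below 1 FPKM in the others.

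Airn, the paternal antisense transcript of the Igf2r locus, was detected as often as Meg3 but at low levels. It was at 1 FPKM or more in 14 of 25 cells, or 56.0% (34.9 to 75.6%), and in 13 of 23, or 56.5% (34.5 to 76.8%), without cells 23 and 24. In those 13 cells the lowest, median and highest values were 1.04, 2.01 and 11.8 FPKM, the last in cell 26. Values above 0 were listed in 19 of the 23 cells, and 3 of them were at 5 FPKM or more, so the share detected depends on the threshold.

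Kcnq1ot1, the paternal antisense transcript that starts in an intron of Kcnq1, was at 1 FPKM or more in 11 of 25 adult cells, or 44.0% (24.4 to 65.1%). Without cells 23 and 24 it was detected in 10 of 23, or 43.5% (23.2 to 65.5%), at a lowest, median and highest value of 1.01, 3.12 and 6.54 FPKM. Its level had a Spearman correlation of 0.34 with the number of rows detected per cell over these 23 cells, where that of H19 was -0.077, that of Meg3 0.066 and that of Airn 0.054. These are weak relations in sparse data and are given as a description only.

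Over the 23 adult cells the median levels, in FPKM, were in the order Meg3 at 2.07, Airn at 1.23, Kcnq1ot1 at 0.62 and H19 at 0.166. The ranges over cells of all neighbours in this order overlapped, since each RNA was listed at 0 in at least 4 cells. Among detecting cells only, all 7 H19 values lay above every Airn and Kcnq1ot1 value, while H19 and Meg3 overlapped.

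**Figure D3:**
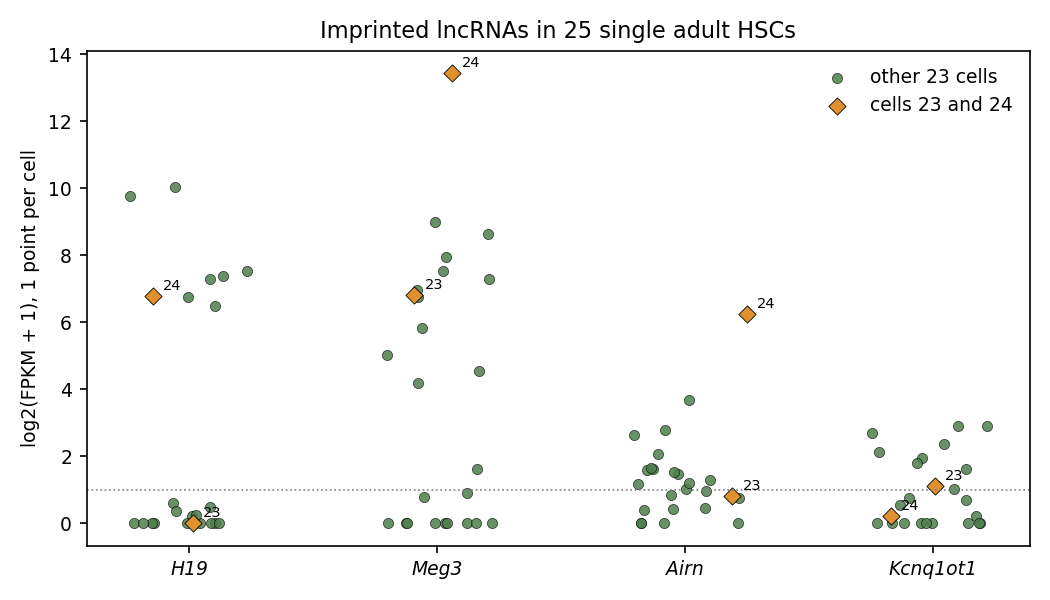
Levels of the 4 lncRNAs in 25 single adult HSCs, log2(FPKM + 1), 1 point per cell; diamonds are cells 23 and 24 and the dotted line marks 1 FPKM. H19 falls into a group at 88.6 FPKM or more and a group at 0.514 FPKM or less, and Airn and Kcnq1ot1 stay below 12 FPKM outside cell 24.

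Most adult cells held more than 1 of the 4 RNAs. At 1 FPKM or more, cell 25 held none, 7 cells held 1, 12 held 2, 4 held 3 and cell 20 held all 4, so that 17 of 25 cells, or 68.0%, held at least 2. Without cells 23 and 24 it was 15 of 23, or 65.2%. H19 and Kcnq1ot1, neighbours on chromosome 7 of opposite parental origin, were seldom detected together. Kcnq1ot1 was detected in 1 of 8 cells with H19, or 12.5% (0.316 to 52.7%), and in 10 of 17 cells without H19, or 58.8% (32.9 to 81.6%). The exact intervals overlap. Without cells 23 and 24 the counts were 1 of 7 and 9 of 16, and the 1 cell with both was cell 20. The pattern depended on the threshold: at any value above 0, Kcnq1ot1 was listed in 53.8% of the cells with H19 above 0 and in 75% of those without. Among cells with at least the median number of detected rows, the shares were 33.3% and 70%. As a description, the levels of H19 and Kcnq1ot1 had a Spearman correlation of -0.40 over 23 cells.

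The other pairs were detected together in 5 to 8 of 25 cells. Meg3 was found in 5 of 8 cells with H19 and in 9 of 17 without, and Airn in the same numbers of cells. Meg3, maternal, and Kcnq1ot1, paternal, were found together in 8 cells, in 57.1% (28.9 to 82.3%) of the cells with Meg3 and 27.3% (6.02 to 61.0%) of those without. Airn was found in 6 of 14 cells with Meg3, or 42.9% (17.7 to 71.1%), and in 8 of 11 without, or 72.7% (39.0 to 94.0%). Airn and Kcnq1ot1, both paternal, were found together in 5 cells. All of these intervals overlap between the cells with and without the partner. Without cells 23 and 24, Meg3 was found in 4 of 7 cells with H19 and 8 of 16 without, Airn in 4 of 7 and 9 of 16, Kcnq1ot1 in 7 of 12 cells with Meg3 and 3 of 11 without, and Airn in 5 of 12 and 8 of 11.

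**Figure D4:**
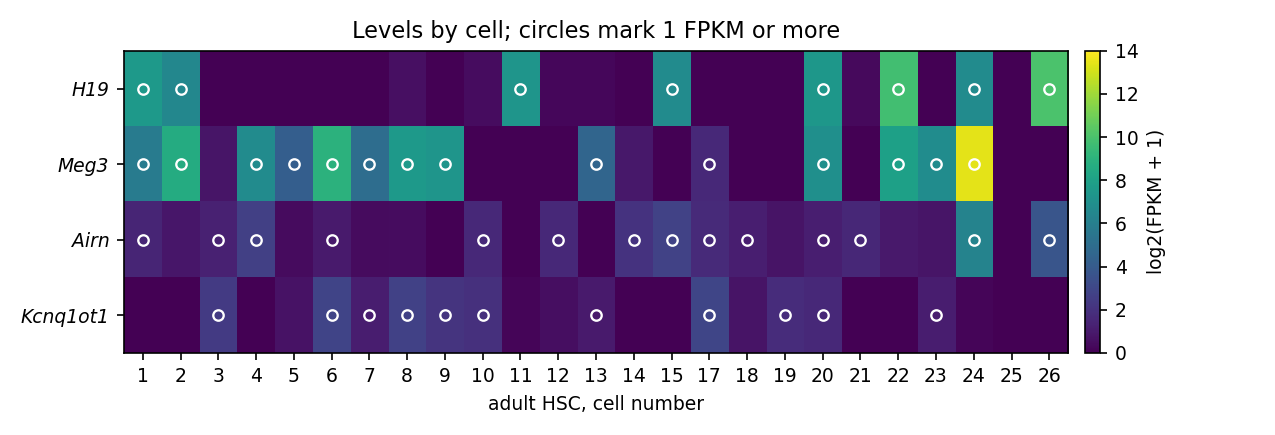
Levels of the 4 lncRNAs (rows) in each of 25 adult HSCs (columns, by cell number), coloured by log2(FPKM + 1), with circles at 1 FPKM or more. Only cell 20 carries circles in all 4 rows, and cell 25 carries none.

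Among the other rows named by likeness to each RNA over the 23 adult cells, the correlations were lower than that of Gm26906 with Meg3. Next for Meg3 were Gm29242 and Gm28037, at rho of 0.67 and 0.59. For H19 they were Yam1 at 0.62, Mypopos at 0.58 and Gm5570 at 0.53, for Airn 9830144P21Rik at 0.56, Gm15489 at 0.55 and Lincpint at 0.55, and for Kcnq1ot1 Gm29088 at 0.66, Gm15581 at 0.59 and St8sia3os at 0.58. These are the highest of 718 rows each, so values of this size are selected, and nothing follows from them about shared control.

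In the T1 pre-HSCs the comparison of KO with wildtype cells asks how the imprinted transcripts differ when the H19 DMR is deleted, and H19 itself checks the labels. H19 had a lowest, median and highest value of 0, 28.1 and 186 RPKM in KO cells, against 231, 477 and 1261 RPKM in wildtype cells. The groups did not overlap. The mean log2(RPKM + 1) was 4.30 ± 2.37 in KO cells and 9.08 ± 0.76 in wildtype cells (SD over 12 and 9 cells), a difference of -4.78. Over the 3867 genes that reached 1 RPKM in 50% or more of the KO cells or of the wildtype cells, the median difference was -0.36. Of these genes 28% were lower by at least 1 on the log2 scale and 11.4% were higher, and 39.4% passed that size in either direction, so a difference of 1 is common here. KO values lay below all wildtype values with no overlap in 0.0517% of the genes compared, or 2 genes, H19 and Spi1. Of these, H19 reached 1 RPKM in 50% or more of the cells of both genotypes, and Spi1 was compared only through the wildtype cells.

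The lower H19 could also be read from its rank within each cell. Rank does not depend on scaling between cells, but it does depend on the number of genes detected. KO cell 1, with 1517 genes at 1 RPKM or more and H19 at 10.2 RPKM, had rank 877. KO cell 5, with 8408 genes and H19 at 3.86 RPKM, had rank 6830. H19 ranked between 865 and 6830 among the 14833 genes in KO cells, with a median of 1726, and between 173 and 677 in wildtype cells, with a median of 367. Set against Igf2, the paternally expressed growth factor gene of the same locus, H19 was at 0 to 12.4 times the RPKM of Igf2 in KO cells, median 0.091, and at 0.463 to 605 times in wildtype cells, median 2.20. H19 exceeded Igf2 in 1 of 12 KO cells, cell 8, where Igf2 was at 15.0 RPKM, and in 7 of 9 wildtype cells. The extreme ratio of 605 was that of wildtype cell 13, with Igf2 at 1.49 RPKM. Across the 12 KO cells H19 had a Spearman correlation of -0.077 with Igf2, and of 0.31 with the number of detected genes. Across the 9 wildtype cells these were -0.48 and -0.13. These are descriptions over cells of 1 sample.

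H19 was lowest in KO cells 9 and 11, at 0 and 0.81 RPKM, and the other 10 KO cells were at 3.86 RPKM or more. In KO cell 9 the sort markers Pecam1, Kit, Procr and Cdh5 were all listed at 0, and 3 of 12 mesenchymal markers reached 1 RPKM. Among those 12, the collagen gene Col3a1 was at 235 RPKM, while Dcn and Lum, matrix proteoglycans, were listed at 0. In KO cell 11 only Procr of the 4 sort markers exceeded 1 RPKM, at 4.30 RPKM, and 9 of the 12 mesenchymal markers did, with Col3a1 at 210, Dcn at 126 and Lum at 303 RPKM. KO cells 3 and 7 also had 1 of the 4 sort markers, with H19 at 28.9 and 27.4 RPKM, near the KO median. Among the 8 KO and 7 wildtype cells with at least 2 of these 4 markers at 1 RPKM or more, a choice made after seeing the data, H19 spanned 3.86 to 186 RPKM for KO, against 231 to 1261 RPKM for wildtype, and the difference was -3.91.

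Meg3 reached 1 RPKM in 4 KO cells and in 0 wildtype T1 cells. It was at 22.4, 37.7, 5.29 and 222 RPKM in KO cells 5, 6, 9 and 11, below 1 RPKM in the other 8 KO cells, and at most 0.609 RPKM in the wildtype cells. The share of cells was 33.3% (9.92 to 65.1%) in KO and 0% (0 to 33.6%) in wildtype cells, and these intervals overlap. Meg3 was not among the genes compared, since it did not reach 50% of either group. Its mean log2(RPKM + 1) was 1.77 ± 2.68 for KO cells, against 0.11 ± 0.23 for wildtype cells. The difference of 1.66 was below the SD over KO cells. It was 0.19 with medians over cells and 1.11 without KO cell 11.

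The KO cells with Meg3 were not alike in their markers. The summed level of 12 mesenchymal markers was 260, 75.8, 324 and 2444 RPKM in KO cells 5, 6, 9 and 11. It ranged from 0.0331 to 2444 RPKM over all KO cells and from 0.945 to 455 RPKM over wildtype cells. A high sum was also found without Meg3 and could rest on 1 gene. KO cell 4, with Meg3 listed at 0, had a sum of 999 RPKM with 1 of the 12 markers at 1 RPKM or more. Of the 12 markers 10 reached 1 RPKM in any cell; Pdgfra and Lepr did not. KO cell 11, with the highest Meg3, had 9 of the 12 markers at 1 RPKM or more and Dlk1, the paternally expressed Notch ligand of the same cluster, at 149 RPKM. The part of these cells in the Meg3 result was not tested. Among the 8 KO and 7 wildtype cells with at least 2 sort markers, Meg3 was at 1 RPKM or more in 2 KO cells, 5 and 6, and in 0 wildtype cells, with a difference of 1.29. Gm26906, the row inside the Meg3 span, had 28.0 RPKM (KO cell 5) and 2.92 RPKM (KO cell 11) and was listed at 0 in the other 19 cells. Rian reached 1 RPKM in 3 KO and 1 wildtype cells and Dlk1 in 3 and 1.

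Airn reached 1 RPKM in 6 of 12 KO cells, 50% (21.1 to 78.9%), against 5 of 9 wildtype cells, 55.6% (21.2 to 86.3%). Its median was 0.999 RPKM over KO cells, against 1.15 RPKM over wildtype cells. In each genotype 1 cell stood far above the rest: KO cell 9 at 693 RPKM, with the next KO cell at 2.77 RPKM, and wildtype cell 14 at 141 RPKM, with the next wildtype cell at 3.19 RPKM. The mean log2(RPKM + 1) was 1.50 ± 2.59 for KO cells, against 1.68 ± 2.18 for wildtype cells. The difference was -0.18, with -0.90 without KO cell 9, 0.50 without wildtype cell 14 and 0.041 with a pseudocount of 10, so no direction is given. Wildtype cell 14 had Col1a1, Col3a1 and Dcn, extracellular matrix genes, at 45.7, 58.3 and 71.6 RPKM, with 6 of the 12 mesenchymal markers and 1 of the 4 sort markers above 1 RPKM and Lum listed at 0. The part of such cells in the Airn values was not tested. Among the 8 KO and 7 wildtype cells with at least 2 sort markers, the highest Airn value was 1.65 RPKM for KO and 3.19 RPKM for wildtype. Igf2r, the mannose 6-phosphate receptor gene that Airn silences in cis, reached 1 RPKM in 3 KO and 3 wildtype cells.

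Kcnq1ot1 reached 1 RPKM in 3 of 12 KO cells, 25% (5.49 to 57.2%), against 5 of 9 wildtype cells, 55.6% (21.2 to 86.3%). Its values ranged from 0 to 2.80 RPKM in KO cells, with a median of 0.016, and from 0 to 4.66 RPKM in wildtype cells, with a median of 1.85. The ranges overlapped. The mean log2(RPKM + 1) was 0.45 ± 0.64 for KO cells, against 1.14 ± 0.94 for wildtype cells. The difference was -0.69, beside the median of -0.36 over all genes compared. Kcnq1ot1 was among the genes compared only through the wildtype cells, where it was higher, so the filter favoured a lower KO value. Over the 12 KO cells Kcnq1ot1 had a Spearman correlation of 0.72 with the number of genes detected in a cell, and over the 9 wildtype cells one of 0.33. The part of detection depth in this difference was not tested. The difference was -1.61 with a pseudocount of 0.1 and -1.49 with medians over cells. With means and a pseudocount of 1, H19 was the 1 lncRNA of the 3 compared that passed a difference of 1 in size, which 39.4% of all genes compared did.

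**Figure D5:**
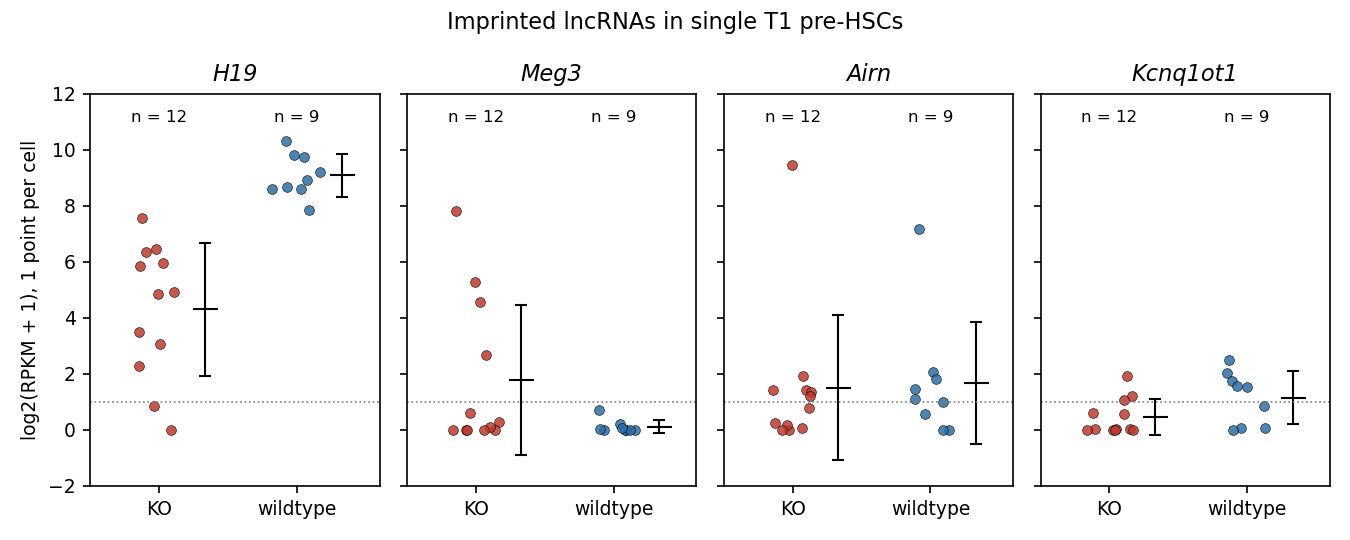
Levels of the 4 lncRNAs in 12 KO and 9 wildtype T1 pre-HSCs, log2(RPKM + 1), 1 point per cell; bars give the mean and SD over cells, and the dotted line marks 1 RPKM. H19 is the only one of the 4 whose KO and wildtype cells do not overlap, and Airn has 1 cell far above the rest in each genotype.

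In the T1 cells at least 2 of the 4 RNAs reached 1 RPKM in 7 of 12 KO cells, 58.3%, against 6 of 9 wildtype cells, 66.7%. All 4 KO cells with Meg3 also had Airn, 100% (39.8 to 100%), against 2 of the 8 KO cells without Meg3, 25% (3.19 to 65.1%). These intervals overlap. Airn was at 1.55, 1.64, 693 and 2.77 RPKM in KO cells 5, 6, 9 and 11, the cells with Meg3. Airn and Kcnq1ot1 were found together in 2 of 12 KO cells and 4 of 9 wildtype cells. H19 and Kcnq1ot1 were found together in 3 of 12 KO cells and 5 of 9 wildtype cells; H19 was detected in all 9 wildtype cells, which leaves no cell without it. Levels were not compared between the T1 and adult tables, whose titles name different library methods.

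The loci of the 4 RNAs were described from lists drawn up with earlier results of these data known, and each list holds the lncRNA itself. At the Kcnq1ot1 locus 13 of 16 genes were listed and 5 compared, Kcnq1ot1 among them, with 2 lower by 1 or more in KO and 0 higher. Of all genes compared 28% were lower and 11.4% higher by that size, so counts this small are not set apart from the rest. The 2 genes were Cdkn1c, a maternally expressed cell cycle inhibitor, at -1.95, and Cd81, a tetraspanin, at -1.39. Cdkn1c reached 1 RPKM in 9 KO and 9 wildtype cells, and Cd81 in 10 and 8. Kcnq1 itself, a potassium channel gene, reached 1 RPKM in 0 cells, and Phlda2, a maternally expressed placental growth gene, in 0 KO and 1 wildtype cells. At the Airn locus 5 of 9 genes were listed and 3 compared: Airn itself at -0.18, Tcp1, a chaperonin subunit, at -1.57 and Mrpl18, a mitochondrial ribosomal protein, at -0.57. At the H19 locus 6 of 9 were listed and 3 compared: H19 itself at -4.78, Igf2 at 0.64 and Mrpl23, a mitochondrial ribosomal protein, at -0.96. At the Meg3 locus 4 of 10 were listed and 0 compared.

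Genes on the list of imprint factors were mixed. Besides factors that maintain imprints, the list holds enzymes that set or oxidise DNA methylation. Of 18, 15 were listed and 8 compared, with 2 lower and 1 higher in KO by 1 or more and a median difference of -0.079, beside 28% lower, 11.4% higher and a median of -0.36 over all genes compared. Dnmt3a, a de novo DNA methyltransferase, was at -2.42, Smchd1, a structural chromatin protein that acts in imprinting and X inactivation, at 1.76, and Tet2, which oxidises methylcytosine, at -1.53. Smchd1 reached 1 RPKM in 7 KO and 2 wildtype cells, and Tet2 in 2 and 6. Smchd1 was thus compared only through the KO cells and Tet2 only through the wildtype cells, each the group where it was higher, so the filter favoured these directions. Of 18 reported protein and RNA partners of the 4 lncRNAs, 9 were compared, with 3 lower and 0 higher by 1 or more and a median difference of -0.80, again beside 28% and 11.4% of all genes. The 3 were Ezh2, the methyltransferase of Polycomb repressive complex PRC2, at -1.96, Elavl1, the RNA-binding protein HuR, at -1.25, and Jarid2, a PRC2 cofactor, at -1.11. Ezh2 reached 1 RPKM in 4 KO and 7 wildtype cells and was compared only through the wildtype cells, where it was higher.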

How the data were processed

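RNA was measured in single cells, by Smart-Seq for T1 pre-HSCs and poly A enriched RNA-Seq for adult HSCs, per the labels' titles. The deposited T1 table holds RPKM; the adult table names no unit and was treated as deposited FPKM because Cufflinks 2.1.0 and mm10 are named, per the submitters' processing notes. For the aligner and the annotation the sources used here give no name. The smallest adult value above 0 was 0.100. The 5 methylation samples were not analysed here, and 2 adult columns that share a name were not used.

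Columns were matched to samples by cell number. Detection meant a value of 1 or more. Differences are KO minus wildtype means of log2(RPKM + 1), which understates low genes. Genes compared reached 1 RPKM in 50% or more of the KO cells or of the wildtype cells. Shares carry exact Clopper-Pearson 95% intervals. Locus, marker and partner genes come from lists; the named list genes are the 3 largest differences, and the named rows the 3 highest Spearman correlations among rows at 1 or more in 25% of cells. Members and lists were chosen with earlier results of these data known. The code of the difference and correlation steps was checked on made-up data. How these steps behave for RNAs with low or absent values in many cells was not tested. Python 3.11.15, numpy 2.4.6, pandas 2.3.3 and scipy 1.17.1 were used. Alternatives were other pseudocounts, thresholds, scaling and filters, medians, cells left out and a choice of cells by sort markers.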

Additional observations from a re-analysis of the deposited data

Results flagged for a closer look

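In the 9 wildtype T1 pre-HSCs, cell 14 stood apart from the others in Airn and in Meg3. Its Airn value of 7.15 on the log2(RPKM + 1) scale, or 141 RPKM, was separated from the next cell by 0.711 of the whole range, and its Meg3 value of 0.69, or 0.609 RPKM, by 0.683 of the range, where 0.493 is the critical value for 9 cells. This critical value is made for normal values, where chance flags about 1 in 20 groups, and 4 groups of 9 cells were examined. That rate cannot be relied on here, since Meg3 was listed at 0 in 5 of the 9 cells and Airn in 2. The cells are also of 1 sample, so the flags are a description only. The Meg3 value is below the detection threshold of 1 RPKM. The same cell had Rian at 31.6 RPKM and Dlk1 at 8.44 RPKM, each the highest of the wildtype cells.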

How the results depend on the processing

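Depth was unknown, so low values of Airn and Kcnq1ot1 cannot be given a counting error. H19 kept its direction and size under every alternative, from -5.20 with a pseudocount of 0.1 to -3.90 with one of 10, and from -5.07 to -4.39 without any 1 cell. Without any 1 cell, Meg3 ranged from 1.11 to 1.82, Airn from -0.90 to 0.50 and Kcnq1ot1 from -0.84 to -0.52. Kcnq1ot1 was at -1.61 with a pseudocount of 0.1 and -1.49 with medians over cells, and Meg3 at 0.19 with medians. Genes lower by at least 1 numbered 1082, and 426 with a pseudocount of 10. Those higher numbered 442, and 156 with a pseudocount of 10, 682 with medians, 868 without a filter and 868 over cells with at least 2 sort markers. Without any 1 cell these counts ranged from 892 to 1637 (without wildtype cell 13) and from 274 (without KO cell 5; 290 without KO cell 4) to 567.

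At any value above 0 and at 5 or more, the share of adult cells with Airn was 84.0% and 16.0%, and with at least 2 of the RNAs 96.0% and 40.0%; with Kcnq1ot1 it was 12.0% at 5 or more. For at least 2 RNAs in T1 cells these shares were 91.7% and 16.7% in KO and 100% and 11.1% in wildtype cells. Without any 1 cell, the adult shares ranged from 29.2 to 33.3% for H19, 54.2 to 58.3% for Meg3 and for Airn, 41.7 to 45.8% for Kcnq1ot1 and 66.7 to 70.8% for at least 2, and the T1 shares from 54.5 to 63.6% in KO and 62.5 to 75% in wildtype cells. H19 and Kcnq1ot1 were together in 0 cells without adult cell 20. Airn was at 0.041 with a pseudocount of 10. The cause of these changes was not tested. Leaving out adult cells 23 and 24 moved no share beyond its interval, but leaving out 2 of 25 cells could hardly do so with intervals this wide. Levels did change: the highest Meg3 value went from 11027 to 506 FPKM and the Meg3 median from 17.2 to 2.07 FPKM. No paired analysis was possible because no embryo, litter or mouse was named and the cell numbers do not link cells across groups.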

Other observations

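Within the 12 KO cells, the genes most like H19 were Rab11a, a small GTPase of recycling endosomes, at a Spearman correlation of 0.85, Ecscr, an endothelial surface protein, at 0.82, and Tsfm, a mitochondrial translation elongation factor, at 0.82, the highest of 7025 genes at 1 RPKM or more in at least 25% of these cells. Rab11a and Ecscr each reached 1 RPKM in 9 KO cells, with medians of 666 and 499 RPKM. These are selected values over 12 cells of 1 sample and are given as a description.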
